A study of Mus musculus with 9 samples.

Results

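Secretory products of the prostate's luminal epithelium were followed through 8 mouse genes, Pbsn, Tgm4, Msmb, Azgp1, Wfdc2, Pigr, Ltf and Psca, in 9 bulk RNA-seq libraries. They were chosen by name, without a measured threshold but with earlier results of these data known. All 8 were found by symbol among the 47069 genes counted. The libraries held 3 proximal metastases from epididymal fat, 3 distal metastases and 3 primary prostate tumours. Distal samples carry diaphragm as their tissue label, while the accompanying protocol speaks of lung, so they are called distal throughout. All came from C57BL/6 mice aged about 9 to 10 months that carried Ctnnb1pc(ex3)delta/+, in which 1 Ctnnb1 allele lacks exon 3, together with a further engineered allele. Loss of Ctnnb1 exon 3 removes the sites through which beta-catenin is marked for degradation. Every group had this same genotype, so no library comes from a mouse without it, and the promoter that drove the recombinase was not given in the sources used here. The 9 samples were matched within 3 mice, but the labels do not tell which samples share a mouse.

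Luminal cells line the prostatic ducts and release the fluid that joins semen at ejaculation. Many of their products depend on androgens and are widely used as signs of differentiated prostate epithelium. The 8 genes fall into seminal fluid proteins (Pbsn, Tgm4, Msmb and Azgp1), products that protect mucosal surfaces (Wfdc2, Pigr and Ltf) and a luminal surface protein, Psca.

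Upstream sequence was read for Pigr, Tgm4 and Wfdc2, the members whose levels in both kinds of metastasis lay wholly under the primaries, and for Pbsn, whose promoter is a standard tool for prostate-directed transgenes. RefSeq windows of the GRCm38.p6 build covered 6 members, namely Pbsn, Tgm4, Azgp1, Wfdc2, Pigr and Ltf. Each holds 250 bases before the RefSeq start. The windows were searched for AGAACA on both strands, the core hexamer of steroid hormone response elements, and for TATAAA on the strand of the gene, a form of the TATA box. No match of one motif overlapped a match of the other. In the sequences below, written 5′ to 3′ on the strand of the gene, capitals mark a match.
Pigr, promoter: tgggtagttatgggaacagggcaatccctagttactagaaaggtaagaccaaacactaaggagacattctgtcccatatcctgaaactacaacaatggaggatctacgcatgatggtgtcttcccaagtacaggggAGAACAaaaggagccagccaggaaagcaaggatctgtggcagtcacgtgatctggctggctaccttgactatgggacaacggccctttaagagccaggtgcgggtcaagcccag
Tgm4, promoter: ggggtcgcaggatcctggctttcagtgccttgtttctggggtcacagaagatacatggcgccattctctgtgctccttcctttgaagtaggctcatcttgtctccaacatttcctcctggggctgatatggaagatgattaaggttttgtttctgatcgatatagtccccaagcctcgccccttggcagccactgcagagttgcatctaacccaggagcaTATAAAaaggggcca
Wfdc2, promoter: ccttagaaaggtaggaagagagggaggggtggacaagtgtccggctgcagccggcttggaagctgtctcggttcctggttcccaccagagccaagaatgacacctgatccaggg
Pbsn, AGAACA site: caactgggatgcAGAACActgctcacgcca
Pbsn, TATAAA site: ctgaaagccaacTATAAAaagcagagagat
The Pigr stretch is chr1:130826434-130826683 on the plus strand, with AGAACA 114 bases before the start. The Tgm4 stretch is chr9:123034491-123034725 on the plus strand, with TATAAA 30 bases before the start. The Wfdc2 stretch, chr2:164562465-164562578 on the plus strand, lies inside the annotated gene, in the span of a non-coding transcript, and ends before the start of the longest protein-coding one, and neither motif lies in its whole window. The Pbsn sites are chrX:77853578-77853607 and chrX:77853542-77853571 on the minus strand, 95 and 59 bases before the RefSeq start and inside a longer annotated transcript. The Azgp1 and Ltf windows hold neither motif. Among all 32851 windows of this length, 16.1% hold AGAACA and 7.59% hold TATAAA, so a match is a description of the letters and no more.

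Levels are given as CPM, read counts divided by the library total after trimmed mean of M values scaling. Library totals ranged from 28334730 to 40408723 counts. At these totals a count of 0 allows up to 3 counts, or 0.0714 to 0.117 CPM, for counting error only. Several primary libraries stood apart. Primary 1 was closer to the metastases than to the other primaries (mean Pearson correlation of log2(CPM + 1) across genes 0.975 with the metastases and 0.898 with primaries 2 and 3), whereas primaries 2 and 3 had 0.868 and 0.907 with the metastases. Primary 2 had mitochondrial transcripts at 0.131% of counts, against 0.868 to 1.18% elsewhere. It also had CT010467.1 at 2.28% and Lars2 at 1.87% of counts, against at most 0.236% and 0.238% elsewhere. Its scaling factor was 0.796, against 0.994 to 1.05 elsewhere, and the cause of these differences was not tested. Primary 3 held seminal vesicle markers at 10553 summed CPM. The members varied more among primaries than among metastases, with a median SD on the log2 scale of 0.661 in proximal, 0.538 in distal and 2.19 in primary libraries. All genes tested did so too (0.144 in proximal, 0.138 in distal and 0.492 in primary libraries), so one pooled estimate of the spread serves groups that differ in it. The seminal vesicle markers Svs2, Svs4 and Svs5 encode the proteins of seminal vesicle fluid.

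**Figure D1:**
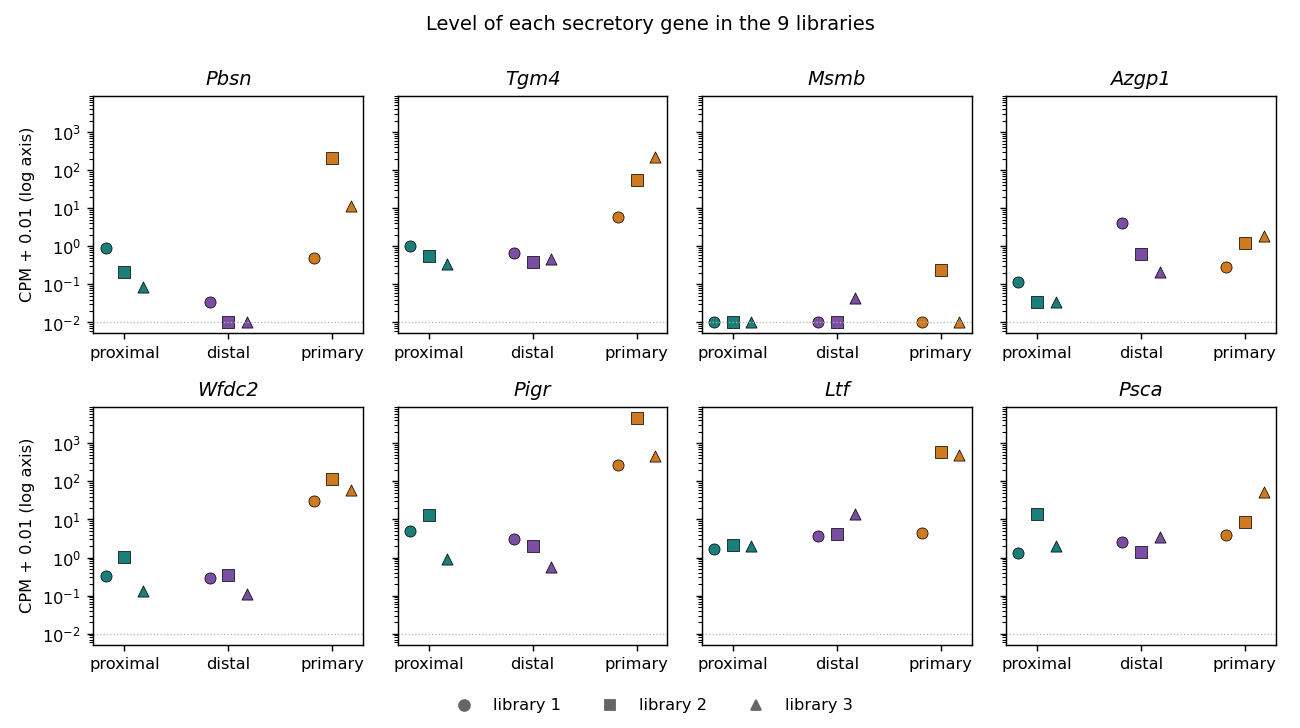
Level of each of the 8 secretory genes (CPM on a log axis; a count of 0 is drawn at the dotted line) in the 3 proximal, 3 distal and 3 primary libraries, with 1 point per library and its number as the point shape. Primary 2 and 3 stand far above all 6 metastases for Pbsn, Tgm4, Wfdc2, Pigr and Ltf, while Psca and Azgp1 overlap more.

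Among the seminal fluid proteins, Msmb and, in distal libraries, Pbsn were near the limit of counting in the metastases, while Tgm4 had 14 to 38 counts in each metastasis and Azgp1 was highest in a distal one. Pbsn encodes probasin, an androgen-regulated lipocalin of the rodent prostate (ENSMUSG00000000003, chrX:77837901-77853623, GRCm38). Pbsn had 0.887, 0.204 and 0.0733 CPM in proximal 1, 2 and 3, then 0.0250, 0 and 0 CPM in distal 1, 2 and 3, and 0.483, 211 and 11.8 CPM in primary 1, 2 and 3. Primary 2 alone held most of the signal, and primary 1 lay below proximal 1, so proximal and primary libraries overlapped while every distal library lay below every primary. The log2 fold change of proximal against primary was -7.58 (SE 2.07, edgeR adjusted p = 0.161), and without primary 2 it was -3.99. Distal libraries held 1 Pbsn count in all, against 5767 in the primaries, which at their totals put the primary level at 6995 times the distal one (95% interval 1255 to 276340, counting error only), with an edgeR adjusted p of 0.129. Of the primary counts 5402 came from primary 2, and without it, a choice made after seeing the data, the ratio was 613 (interval 109 to 24267, counting error only).

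Tgm4 encodes the prostate transglutaminase that crosslinks seminal vesicle proteins into the mouse copulatory plug (ENSMUSG00000025787, chr9:123034726-123067561). It had 0.991, 0.535 and 0.342 CPM in proximal 1, 2 and 3, then 0.649, 0.381 and 0.466 CPM in distal 1, 2 and 3, and 5.95, 55.3 and 224 CPM in primary 1, 2 and 3. All 6 metastases lay below all 3 primaries, and primary 1 was the lowest of these. The log2 fold change was -7.25 (SE 1.30, edgeR adjusted p = 0.100) in proximal and -7.56 (SE 1.32, adjusted p = 0.0977) in distal against primary libraries. The highest Tgm4 level fell in primary 3, the library with 10553 summed CPM of seminal vesicle markers, against 3.10 to 17.7 in the metastases and 10.4 and 30.8 in the other primaries. Without primary 3 the log2 fold change of Tgm4 was -5.61 in proximal and -5.92 in distal libraries, with the groups still apart. Tgm4 overlaps Gm49323 on its own strand and Zdhhc3 on the other, and the strand setting of the counting was not given in the sources used here, so reads of the overlap may be divided among them.

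Msmb, which encodes beta-microseminoprotein, a major seminal plasma protein in humans (ENSMUSG00000021907, chr14:32142023-32158370), was at or near 0 counts everywhere. It had 0 counts in all 3 proximal libraries, 1 in distal 3 and 6 in primary 2, and 0 in the others. No test was made, since it did not pass the filter on low counts. The ratio of primary to distal levels was 7.28 with an interval of 0.883 to 335, which spans equality. Of the level in proximal over primary libraries, with 0 against 6 counts, the upper bound was 0.663. All of the primary counts came from primary 2, and both intervals cover counting error only. The reverse-strand pseudogene Gm18909 overlaps it.

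Azgp1 encodes zinc-alpha-2-glycoprotein, a secreted relative of the major histocompatibility class I heavy chain found in seminal fluid and also made by liver and fat (ENSMUSG00000037053, chr5:137981520-137990233). It had 0.104, 0.0255 and 0.0245 CPM in proximal 1, 2 and 3, then 4.05, 0.619 and 0.200 CPM in distal 1, 2 and 3, and 0.268, 1.21 and 1.87 CPM in primary 1, 2 and 3. Distal 1 was the highest of the 9 libraries, and each proximal library was below each distal and each primary one. Azgp1 was the only member tested whose log2 fold change of distal against primary was above 0, at 0.55 (SE 1.07, edgeR adjusted p = 0.760), and without distal 1 it was -1.40. Against primary libraries the proximal value was -4.35 (SE 1.35, adjusted p = 0.186). Distal 1 also had the highest sum of hepatocyte markers other than Alb, 220 CPM, against 47.0 and 74.8 in distal 2 and 3, 32.7 to 121 in proximal and 38.3 to 78.4 in primary libraries. Hp gave 31.3, 10.6 and 60.8 CPM of this sum in distal 1, 2 and 3. It gave 27.3 to 92.4 CPM in proximal and 33.8 to 66.8 CPM in primary libraries. Ahsg gave 55.1, 11.7 and 6.59 CPM in distal 1, 2 and 3, and at most 6.26 CPM in proximal and 4.21 CPM in primary libraries. Alb itself was at 5228 to 7561 CPM in proximal, 5824 to 6819 CPM in distal and 114 to 4030 CPM in primary libraries. Adipocyte markers summed to 32.8, 38.3 and 389 CPM in distal 1, 2 and 3, the lowest sum in distal 1. In proximal libraries, where Azgp1 was lowest, they summed to 133 to 495 CPM, and in primary libraries to 57.1 to 366 CPM. The part of liver or fat cells in the Azgp1 level was not tested.

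Among the products that guard mucosal surfaces, Pigr and Ltf had the highest mean levels of the members in primary tumours (Ltf through primary 2 and 3 only), and Wfdc2 was the 1 member called. Wfdc2 encodes a small secreted protein of the whey acidic protein family made by many glandular epithelia (ENSMUSG00000017723, chr2:164562413-164568510). It had 0.313, 1.02 and 0.122 CPM in proximal 1, 2 and 3, then 0.275, 0.333 and 0.0999 CPM in distal 1, 2 and 3, and 29.7, 115 and 59.9 CPM in primary 1, 2 and 3. Each primary was far above each metastasis, primary 1 included, and the groups did not overlap. Wfdc2 fell in distal against primary libraries (log2 fold change -8.12, SE 0.97, edgeR adjusted p = 0.0441, lower in 3 of 3 libraries), the only call among the members. In proximal libraries the log2 fold change was -7.13 (SE 0.92), and its adjusted p of 0.0504 missed the threshold of 0.05. Leaving out 1 library at a time moved the adjusted p between 0.00176 (without primary 1) and 0.382 (without distal 2) for distal, and between 0.00198 (without primary 1) and 0.433 (without proximal 1) for proximal libraries. The distal call was lost when any one library other than primary 1 was left out, with adjusted p-values of 0.0570 without primary 2, 0.112 without primary 3, 0.0961, 0.0606 and 0.118 without proximal 1, 2 and 3, and 0.0897 and 0.289 without distal 1 and 3. With 1 library left out, the log2 fold change of Wfdc2 in distal libraries stayed between -8.45 and -7.51. In bulk RNA, fewer luminal cells in a sample and less RNA of these genes per cell cannot be told apart.

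Pigr encodes the polymeric immunoglobulin receptor, which carries dimeric IgA across epithelia and is shed into secretions with it (ENSMUSG00000026417, chr1:130826684-130852249). It had 4.88, 13.0 and 0.905 CPM in proximal 1, 2 and 3, then 3.07, 2.05 and 0.566 CPM in distal 1, 2 and 3, and 273, 4731 and 455 CPM in primary 1, 2 and 3. Every primary was above every metastasis, with the lowest primary far above the highest metastasis. The log2 fold change was -8.18 (SE 1.66, edgeR adjusted p = 0.125) in proximal and -9.89 (SE 1.78, adjusted p = 0.104) in distal libraries. Primary 2 carried most of the primary level, and without it these values were -5.87 and -7.56. The J chain gene Jchain, whose product joins the IgA molecules that Pigr carries, was at 2.69 CPM in that library, against 75.2 and 85.6 CPM in primary 1 and 3, so among the primaries the most Pigr stood beside the least Jchain. Among the metastases, proximal 2 had both the most Pigr and the most Jchain (63.6 CPM, against 0.724 to 13.0 CPM in the others).

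Ltf encodes lactotransferrin, an iron-binding protein of exocrine secretions that is also stored in neutrophil granules (ENSMUSG00000032496, chr9:111019271-111042767). It had 1.70, 2.14 and 1.96 CPM in proximal 1, 2 and 3, then 3.70, 4.16 and 14.2 CPM in distal 1, 2 and 3, and 4.48, 607 and 481 CPM in primary 1, 2 and 3. Primary 1 lay within the distal range, so distal and primary libraries overlapped, whereas each proximal library was below all others. The log2 fold change was -7.56 (SE 1.61, edgeR adjusted p = 0.135) in proximal and -5.64 (SE 1.47, adjusted p = 0.151) in distal libraries. Neutrophil markers, among them S100a8, S100a9, Retnlg and Mmp9, summed to 42.0, 147 and 620 CPM in distal 1, 2 and 3 and to 18.2, 65.0 and 27.8 CPM in proximal 1, 2 and 3. Of 11 tested, 10 were positive in distal against proximal libraries, and Mmp9 was negative (log2 fold change -0.50, SE 0.59). Mmp9 gave 8.66, 43.6 and 14.1 CPM of this sum in proximal 1, 2 and 3 and 10.7, 15.7 and 20.5 CPM in distal 1, 2 and 3. Within each metastatic site the libraries stood in the same order by this sum as by Ltf. In primary 2 and 3, where Ltf was at 607 and 481 CPM, the same sum was 102 and 55.1 CPM. In these primaries more Ltf thus stood beside a lower sum than in distal 3, and the part of neutrophils in the Ltf level of the metastases was not tested. Without distal 3 the distal value of Ltf was -6.52.

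Psca encodes prostate stem cell antigen, a surface protein of the Ly6 family that is anchored by a lipid and is abundant in luminal and urothelial cells (ENSMUSG00000022598, chr15:74714839-74717069). It had 1.33, 13.8 and 1.98 CPM in proximal 1, 2 and 3, then 2.57, 1.43 and 3.53 CPM in distal 1, 2 and 3, and 4.0, 8.66 and 53.7 CPM in primary 1, 2 and 3. Proximal 2 exceeded primary 1 and 2, so proximal and primary libraries overlapped, while the distal libraries lay just under the primary range. The log2 fold change was -1.95 (SE 1.15, edgeR adjusted p = 0.350) in proximal and -3.14 (SE 1.21, adjusted p = 0.253) in distal libraries. Without primary 3 these were -0.14 and -1.33, and without proximal 2 the proximal value was -3.72. Urothelial markers, which other Psca-bearing cells could bring, summed to 205 to 272 CPM in proximal, 182 to 268 CPM in distal and 141 to 380 CPM in primary libraries, with ranges that overlapped. Upk3a made up most of this sum in every library but primary 2, at 164 to 237 CPM in proximal and 171 to 257 CPM in distal libraries. It had 168, 28.0 and 276 CPM in primary 1, 2 and 3. Upk1b did not overlap, with at most 8.61 CPM in a metastasis, against 9.41, 109 and 87.4 CPM in primary 1, 2 and 3. Against primary libraries the 5 markers split, with 3 positive and 2 negative in proximal and 2 positive and 3 negative in distal libraries. Of the 5, Upk1a was called, lower in distal libraries (log2 fold change -4.55, SE 0.51, edgeR adjusted p = 0.0391).

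**Figure D2:**
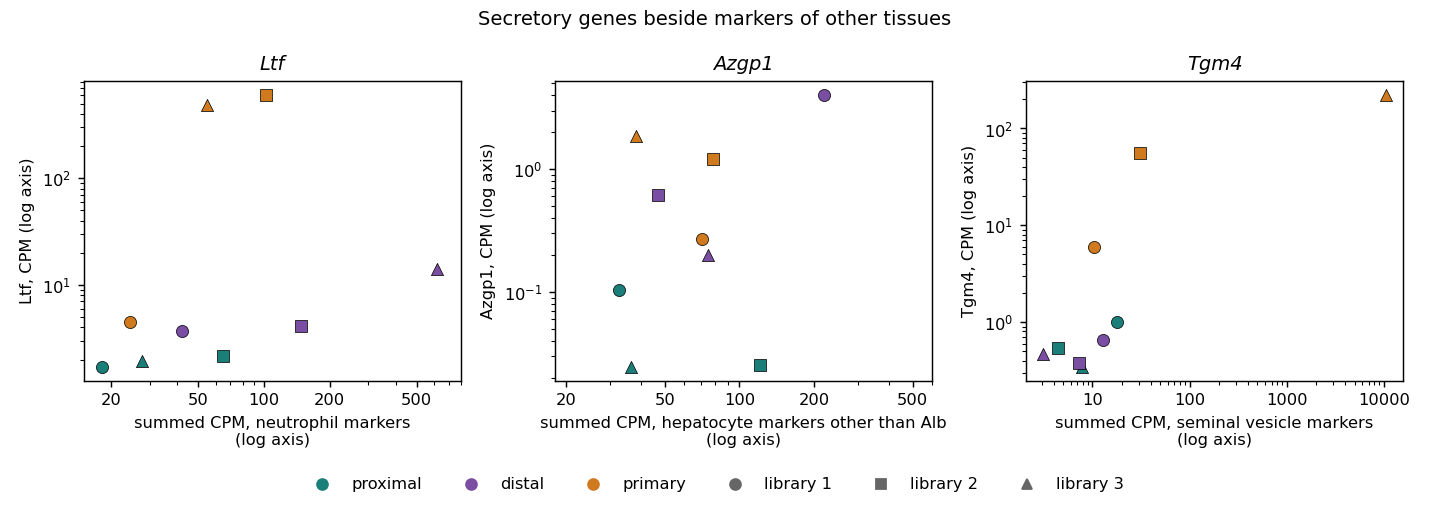
Ltf, Azgp1 and Tgm4 (CPM, log axis) against the summed CPM (log axis) of neutrophil markers, of hepatocyte markers other than Alb and of seminal vesicle markers, with 1 point per library, coloured by group and shaped by library number. Distal 3 has 620 summed CPM of neutrophil markers at 14.2 CPM of Ltf, while primary 2 has 102 at 607 CPM. Distal 1 is highest on both axes for Azgp1, and primary 3 for Tgm4.

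Msmb apart, 7 of the 8 members passed the filter on low counts, and 2 of those, Pbsn and Azgp1, would not have passed on the metastases alone, so the counts that follow describe members measured largely through the primaries. In proximal against primary libraries, 0 of 7 passed the adjusted threshold of edgeR, where 9 of 18204 genes did (0.0494%, all lower). At an unadjusted p below 0.05 the count was 6 of 7, all lower, with 14.3% of all genes tested, and Psca was the exception. The proximal range lay under the primary range for 5 of 7 (Tgm4, Azgp1, Wfdc2, Pigr and Ltf), as for 10.7% of genes. The median log2 fold change of the 7 was -7.25, against -0.05 over all genes tested, and all 7 were negative. In distal against primary libraries, 1 of 7 passed (Wfdc2), where 16 genes did (0.0879%, all lower). At an unadjusted p below 0.05 it was 6 of 7, again lower, with 13.5% of all genes, and Azgp1 was the exception. The distal range lay under the primary range for 5 of 7 (Pbsn, Tgm4, Wfdc2, Pigr and Psca), as for 10.4% of genes. The median log2 fold change was -7.56, against -0.03 over all genes. The proximal and distal comparisons share the same 3 primary libraries and so are not independent of each other.

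The call depended on which primaries were compared and on the test. Without primary 1, edgeR called 6 of 7 members lower in proximal libraries, all but Psca, where 14.9% of genes were called lower. It called 5 of 7 lower in distal libraries, all but Azgp1 and Psca, where 14.1% were. DESeq2 on all 9 libraries called 6 of 7 lower in proximal (all but Psca, with 7.65% of genes) and 6 of 7 lower in distal libraries (all but Azgp1, with 6.89%). limma-voom with a weight for each library's quality called the 6 members other than Azgp1 lower in both, with 11.7% of genes lower in proximal and 10.7% in distal libraries. These 3 settings called the most. With limma-voom without weights, with the 2 compared groups alone, and with any library other than primary 1 left out, 0 of 7 were called in either comparison. Psca was called by the weighted test in both and by DESeq2 in distal libraries only.

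**Figure D3:**
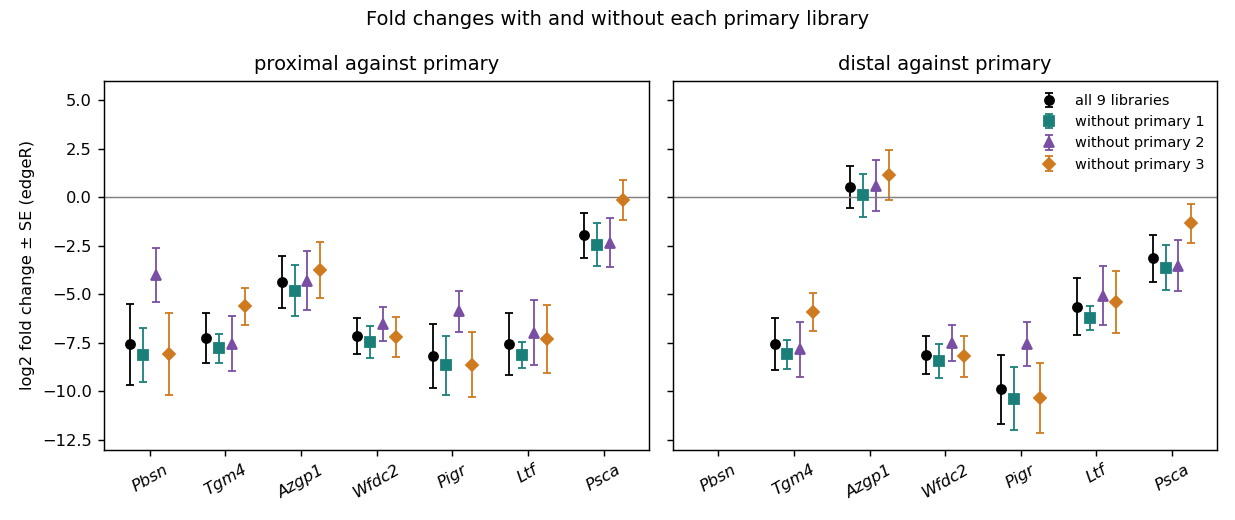
edgeR log2 fold changes (points) with their SE (bars) of the members in proximal (left) and distal (right) against primary libraries, with all 9 libraries and with each primary left out in turn. Pbsn, with 1 count over the distal libraries, has no points at right. Pbsn and Pigr depend most on primary 2, and Tgm4 and Psca on primary 3. Azgp1 runs from 0.10 to 1.16 at right, with SE of 1.07 to 1.30, and was -1.40 without distal 1, which is not drawn.

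Between the metastatic sites, none of the 7 members passed with edgeR, as none of the 18204 genes did (0%), and 375 genes had an unadjusted p below 0.05. Azgp1 had an unadjusted edgeR p of 0.00664 with a log2 fold change of 4.90 (SE 1.36) in distal against proximal libraries. Without distal 1, the library with the highest sum of hepatocyte markers other than Alb, the log2 fold change was 2.94. Of all genes, 1.79% had an unadjusted p below 0.05 in that direction. The proximal libraries held only 4, 1 and 1 Azgp1 counts, and from summed counts the distal level was 34.2 times the proximal one (95% interval 15.4 to 94.3, counting error only). Without distal 1, again chosen after seeing the data, this ratio was 8.77 (interval 3.62 to 25.7). DESeq2 called 85 genes and limma-voom 0, and DESeq2 called Azgp1 alone among the members (log2 fold change 4.98, adjusted p = 0.0249), with 0.469% of genes called higher. The distal range lay above the proximal range for Azgp1 and Ltf (log2 fold change of Ltf 1.92, SE 1.28), as for 4.03% of genes. It lay below for Pbsn, with 1 count against 45, as for 3.6% of genes. For Tgm4, Wfdc2, Pigr and Psca the 2 sites overlapped, with log2 fold changes of -0.31, -0.99, -1.71 and -1.19.

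The shares of the 8 genes in their summed CPM differed between libraries, as did the sum itself. The 8 genes summed to 10.2, 30.8 and 5.40 CPM in proximal 1, 2 and 3, to 14.3, 8.97 and 19.0 CPM in distal 1, 2 and 3, and to 318, 5729 and 1287 CPM in primary 1, 2 and 3. Every metastasis was below every primary, and the lowest primary was primary 1. Pigr made up 47.8, 42.3 and 16.7% of the sum in proximal libraries, 21.4, 22.8 and 2.97% in distal ones and 85.9, 82.6 and 35.3% in primary ones. Ltf made up 16.6, 6.95 and 36.2% in proximal, 25.8, 46.4 and 74.3% in distal and 1.41, 10.6 and 37.4% in primary libraries. Pigr led in proximal 1 and in primary 1 and 2, and Ltf led in distal 2 and 3 and narrowly in primary 3. Psca led in proximal 2 (44.9%) and narrowly in proximal 3 (36.7%), and Azgp1 led in distal 1 (28.2%). Neither the Pigr nor the Ltf share separated the groups completely. Psca held 13.0 to 44.9% of the sum in proximal libraries and 15.9 to 18.5% in distal ones, against 0.151 to 4.17% in the primaries, and its share did not overlap with theirs. These shares come from the same levels as the fold changes above and are not a separate result.

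Set per kilobase of gene model so that genes can be compared, Psca was the highest member in all 6 metastases, though in distal 3 only level with Ltf (both 4.10). Pigr was highest in primary 1 and 2 and Ltf in primary 3. Mean levels in CPM per kilobase were 6.65 in proximal, 2.92 in distal and 25.7 in primary libraries for Psca, and 1.56, 0.471 and 452 in the same order of groups for Pigr. The order of the members per length in primary libraries was Pigr, Ltf, Pbsn, Wfdc2, Psca, Tgm4 and Azgp1 by mean, with an SD larger than the mean for Pbsn, Tgm4, Pigr and Psca. Neighbours from Pigr to Tgm4 overlapped in range, whereas Tgm4 was above Azgp1 in every primary. Primary 1 placed Wfdc2 second and Ltf behind Tgm4, and primary 3 placed Ltf above Pigr and Psca above Wfdc2. Pbsn owed its place by mean to primary 2, at 234 CPM per kilobase. It had 0.535 and 13.0 in primary 1 and 3, below Tgm4 in both.

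**Figure D4:**
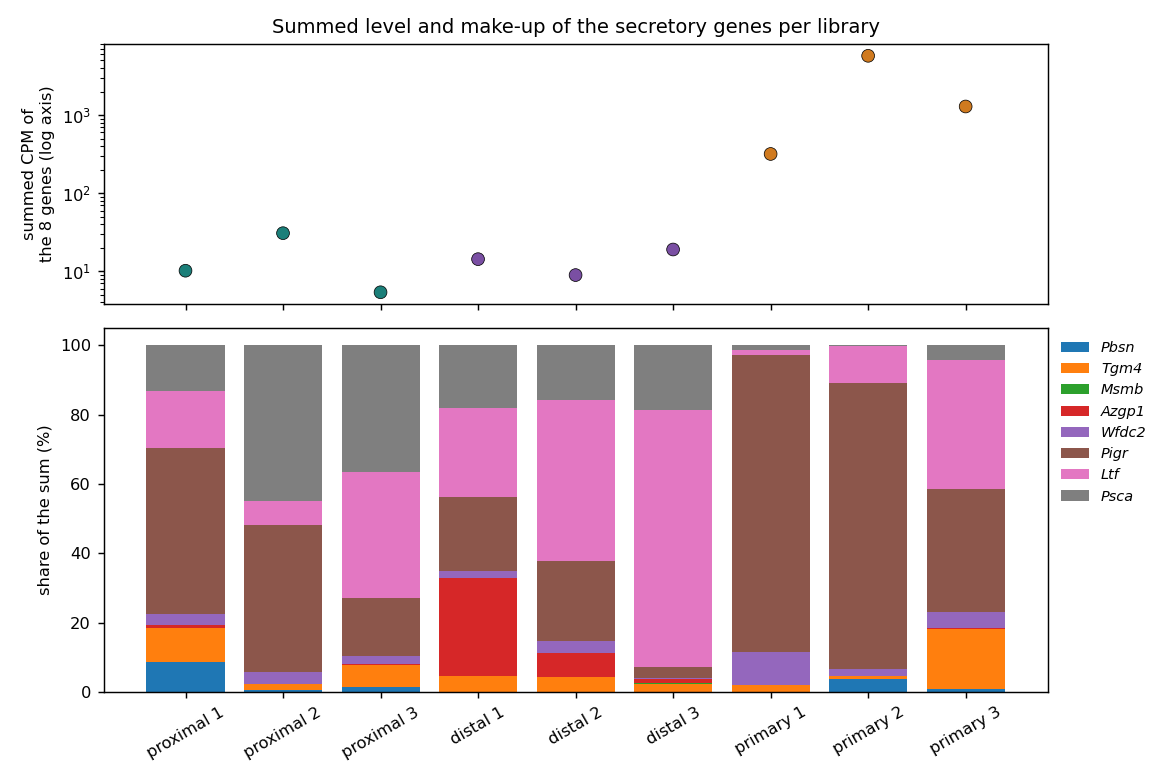
Summed CPM of the 8 genes per library (upper panel, log axis) and the share of that sum from each gene (lower panel, percent), for the 3 proximal, 3 distal and 3 primary libraries. The sums run from 5.40 to 30.8 CPM in metastases and from 318 to 5729 CPM in primaries, with Pigr leading primary 1 and 2 and Ltf leading distal 2 and 3.

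Related genes were examined in lists of luminal and mucosal genes, and described by counts and medians without a test of any list. The lists came from general knowledge but were drawn up with earlier results of these data known. Their counts are thus not independent of the member results. In the list of secretory luminal and prostate lineage genes, 0 of 13 tested were called by edgeR in either comparison with the primaries, 12 of 13 were negative, and the median log2 fold change was -3.73 in proximal and -4.22 in distal libraries. Without primary 1, a fit that called 14.9% of all genes lower in proximal and 14.1% in distal libraries, 8 of 13 were called lower in both, among them Slc45a3, Prom1, Acpp, Dpp4, Hoxb13 and Defb50. Tmprss2, a protease gene under androgen control, had 80.2 to 130 CPM in proximal, 93.6 to 106 CPM in distal and 106 to 211 CPM in primary libraries. Defb50, a defensin gene, had at most 2.84 CPM in a metastasis, against 2.15, 238 and 212 CPM in primary 1, 2 and 3.

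Genes of luminal cells near the urethra, a population apart from the secretory cells of the gland tips, were negative as well. All 10 tested were negative in both comparisons (median log2 fold change -3.89 in each) and 0 were called. Without primary 1, 8 were called lower in proximal and 7 in distal libraries, beside 14.9% and 14.1% of all genes. Clu, which encodes the chaperone clusterin, had 43.5 to 171 CPM in proximal, 44.5 to 69.8 CPM in distal and 82.2, 24520 and 12466 CPM in primary 1, 2 and 3. Ly6a, the gene of the Sca-1 surface protein, had 12.2 to 18.5 CPM in proximal, 9.87 to 14.5 CPM in distal and 35.8 to 523 CPM in primary libraries. The keratin genes Krt4 and Krt7 differed less, with Krt4 at 46.9 to 94.3 CPM in proximal, 56.3 to 99.2 CPM in distal and 48.5 to 277 CPM in primary libraries. Krt7 had 65.5 to 106 CPM in proximal, 100.02 to 139 CPM in distal and 89.6 to 290 CPM in primary libraries.

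Other mucosal defence products, beside Wfdc2, Pigr and Ltf, were negative in 17 of 17 tested in proximal and 16 of 17 in distal libraries, with medians of -3.12 and -3.24 and no call. Without primary 1, of 18 tested, 7 were called lower in proximal and 10 in distal libraries, beside the same 14.9% and 14.1% of all genes. Lcn2, which encodes a siderophore-binding lipocalin, had 27.3 to 126 CPM in proximal, 60.0 to 212 CPM in distal and 27.2, 906 and 746 CPM in primary 1, 2 and 3, so primary 1 lay just below every metastasis. Cp, the ceruloplasmin gene, had 33.0 to 38.2 CPM in proximal, 32.7 to 68.7 CPM in distal and 36.4, 2161 and 198 CPM in primary 1, 2 and 3. Fcgbp, which encodes a mucus protein, had 48.5 to 67.7 CPM in proximal, 50.8 to 67.5 CPM in distal and 137, 60.6 and 28.4 CPM in primary 1, 2 and 3, with no common direction.

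Regulators of secretory differentiation went both ways. Of 10 tested, 0 were called in either comparison, 3 were positive and 7 negative, and the medians were -0.21 in proximal and -0.07 in distal libraries, beside -0.05 and -0.03 over all genes. Xbp1, a transcription factor gene of secretory cells, had 337 to 455 CPM in proximal, 335 to 420 CPM in distal and 320 to 325 CPM in primary libraries. Foxa1, which encodes a pioneer transcription factor of luminal cells, had 97.9 to 160 CPM in proximal, 121 to 170 CPM in distal and 132 to 211 CPM in primary libraries. Elf3 had 155 to 239 CPM in proximal, 162 to 242 CPM in distal and 156 to 328 CPM in primary libraries, and Ehf, a factor of the same ETS family, had 229 to 305 CPM across metastases and 243 to 653 CPM in primaries. Spdef, an ETS factor gene of secretory cells named here after its values were seen, was as low as the members, at 0.0489 to 0.306 CPM in proximal, 0.0238 to 0.0749 CPM in distal and 1.39, 80.1 and 6.75 CPM in primary 1, 2 and 3. Its log2 fold change was -7.27 (edgeR adjusted p = 0.137) in proximal and -9.0 (adjusted p = 0.115) in distal libraries, without overlap. Without primary 1, Ehf, Spdef and Ovol1 were called lower and Creb3l4 higher in both kinds of metastasis. That fit called 14.9% of all genes lower in proximal and 14.1% in distal libraries. It called 2622 of 19009 genes higher in proximal and 2516 in distal libraries.

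Epithelial genes in general shared part of the pattern. All 10 tested were negative in both comparisons (medians -2.22 and -2.21), with 0 called in proximal and 1, the tight junction gene Cldn7, in distal libraries. Cldn7 had 2.35 to 6.31 CPM in proximal, 2.75 to 3.52 CPM in distal and 50.5 to 268 CPM in primary libraries (distal log2 fold change -5.58, SE 0.68, edgeR adjusted p = 0.0466, and proximal -5.02, adjusted p = 0.0504). Without primary 1, 7 of 10 were called lower in both, beside 14.9% of all genes in proximal and 14.1% in distal libraries. Krt8, Krt18 and Krt19, keratins of simple epithelia, were plainly present in the metastases, with Krt8 at 519 to 957 CPM in proximal, 781 to 909 CPM in distal and 1010 to 3763 CPM in primary libraries. Krt18 had 785 to 1056 CPM in proximal, 896 to 965 CPM in distal and 799.96 to 3483 CPM in primary libraries. Krt19 had 114 to 167 CPM in proximal, 136 to 249 CPM in distal and 277, 5167 and 1101 CPM in primary 1, 2 and 3. No gene of these 5 lists was called by edgeR between distal and proximal libraries.

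**Figure D5:**
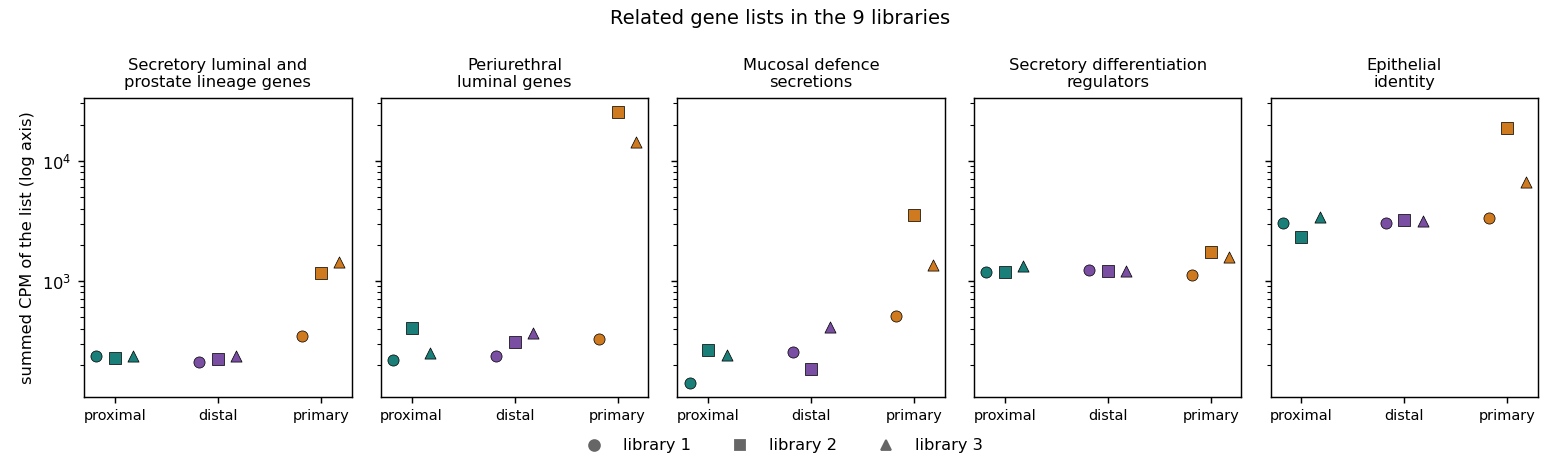
Summed CPM (log axis) of 5 lists of related genes in the 3 proximal, 3 distal and 3 primary libraries, with 1 point per library. Primary 2 and 3 stand above the metastases for each list, by the least for the regulators, whose sums run from 1181 to 1325 CPM in proximal, 1198 to 1241 CPM in distal and 1118 to 1750 CPM in primary libraries.

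Sums of markers for other tissues showed which cells the samples could hold beside tumour. Skeletal muscle genes summed to 736 and 997 CPM in distal 2 and 3 but 7.24 CPM in distal 1, against 2.71 to 7.45 CPM in all proximal and primary libraries. Lung epithelial genes summed to 2.79 to 7.80 CPM in proximal, 3.02 to 6.49 CPM in distal and 6.09, 18.9 and 26.7 CPM in primary 1, 2 and 3, with Sftpa1 at 0 counts in all 9. Adipocyte genes summed to 133 to 495 CPM in proximal, 32.8 to 389 CPM in distal and 57.1 to 366 CPM in primary libraries. Plasma and B cell genes summed to 27.6 to 440 CPM in proximal, 9.39 to 166 CPM in distal and 48.3 to 1016 CPM in primary libraries. Epididymal genes summed to 98.2 CPM in primary 3, of which Crisp1 alone gave 97.7, and at most 1.27 CPM elsewhere, with Lcn9 and Rnase9 at 0 counts in all libraries. The part of these cells in the member levels was not tested.

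The genes whose levels followed each member most closely over the 9 libraries were ranked by Pearson correlation of log2(CPM + 0.5) among 11376 genes, as a description of libraries that share depth and the same 3 primaries. Wfdc2 was most like Cds1, Ppp1r1b and Adgrg7 (0.991, 0.988 and 0.987), and Pigr was most like Ppp1r1b, Hoxb13 and Plcb3 (0.985, 0.973 and 0.973). Wfdc2 and Pigr were also the members most like each other (0.981). Ppp1r1b and Hoxb13 belong to the luminal lists above, and all 3 primaries, primary 1 included, exceeded the metastases for both genes. Tgm4 was most like the basal keratin genes Krt5 and Krt6a and the gene Arrdc4 (0.995, 0.993 and 0.992). Krt5 had 0.816 to 2.79 CPM in proximal, 0.633 to 1.55 CPM in distal and 15.4, 143 and 1355 CPM in primary 1, 2 and 3, lowest in primary 1 and highest in primary 3, as Tgm4 was. Pbsn was most like Slc9a3r1, Cdk19 and Hp1bp3 (0.996, 0.995 and 0.992), and Ltf most like Rhoq, Pabpc4 and Zc3h12a (0.994, 0.994 and 0.993). For Pbsn 489 genes reached 0.95 and for Ltf 302, against 146 for Tgm4, 30 for Wfdc2 and 12 for Pigr, so the patterns of Pbsn and Ltf were widely shared. No gene reached 0.95 for Psca (Rsrp1, Marveld1 and Stk26 at 0.947, 0.942 and 0.940) or Azgp1 (Naa35, Tnfaip1 and Nkd2 at 0.846, 0.823 and 0.786), and Azgp1 was the least like the other members, at 0.280 to 0.490.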

How the data were processed

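Total RNA from 9 samples, 3 proximal metastases, 3 distal metastases and 3 primary tumours, was sequenced as bulk RNA-seq. The authors deposited raw read counts per gene, 1 table per sample, without normalization, and their gene identifiers carry no names, so symbols come from GENCODE M21. Per the submitters' processing notes, HTSeq 0.6.0 was among the tools, with TopHat2 2.1.0, Bowtie2 2.2.6.0, DESeq2 1.14.1 and FastQC 0.11.4, and the build was GRCm38.p3. No strand setting is given in the sources used here, so counts of overlapping genes are uncertain.

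Groups follow the tissue labels. Library numbers follow accession order and only name samples, and pair none. No 2 libraries agreed within counting noise (chi-square per gene at least 23.0). The labels do not say which samples share a mouse, so no animal term was fitted, and p-values treat the libraries as independent. Genes passed edgeR's filter at a minimum count of 10 and a minimum total of 15, which left 18204. All 3 groups were fitted together with edgeR 4.0.16 (robust quasi-likelihood F-test, TMM scaling, 6 residual degrees of freedom) in R 4.3.3, and p-values were adjusted by Benjamini-Hochberg over all genes tested, at 0.05. The procedure was tested on simulated data with the same spread in every group, so that test does not cover the unequal spread of these groups. Alternatives were median-ratio size factors, library totals, no filter, DESeq2 1.42.0, limma-voom (limma 3.58.1) without and with quality weights, the 2 compared groups alone, and each library left out in turn. Intervals of count ratios are exact at 95%. Each edgeR SE is the size of the log2 fold change over the square root of the F statistic, an approximation.

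The members and lists were chosen with earlier results of these data known. Named genes are the 8 members, up to 4 genes of each list (called ones by smallest p, then highest mean CPM), and for each member that passed the filter the 3 genes most like it (mean CPM at least 5, pseudocount 0.5). Cldn7 and Upk1a entered as called genes, and CT010467.1 and Lars2 for a check of the libraries. Genes named as called without primary 1 or as listed at 0 were chosen after their values were seen. Sequences are from RefSeq, build GRCm38.p6. Some genes that the named-gene rule selects, and part of the genotype, are not reported here.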

Additional observations from a re-analysis of the deposited data

How the results depend on the processing

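With edgeR, 9 genes were called in proximal against primary libraries. The count was 15 with median-ratio size factors, 26 without a filter, 1486 with DESeq2, 1 with limma-voom, 3607 with quality weights and 0 with the 2 groups alone, and 0 to 5447 when 1 library was left out. In distal against primary libraries it was 16, and 10 with library totals, 1444 with DESeq2, 1 with limma-voom, 3127 with quality weights, 0 with the 2 groups alone and 0 to 5203 with 1 library left out. Between distal and proximal libraries it was 0, 85 with DESeq2 and 0 to 38 with 1 left out. The counts of members called were 0 in proximal libraries, against 1 without a filter (Wfdc2), 6 with DESeq2, 6 with quality weights and 0 to 6 with 1 left out. In distal libraries they were 1, against 6 with DESeq2, 0 with limma-voom, 6 with quality weights, 0 with the 2 groups alone and 0 to 5 with 1 left out. Between the sites DESeq2 called 1, and leaving 1 out called 0 to 0. The high counts without primary 1 come from fits that lack the primary closest to the metastases, and the cause was not tested.

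The log2 fold change of Azgp1 in distal against primary libraries turned to -0.50 with quality weights and to -1.40 without distal 1, within -1.40 to 1.16 when 1 library was left out. Between distal and proximal libraries, Tgm4 turned to 0.19 without proximal 1 (range -0.61 to 0.19), and without proximal 2 Wfdc2 turned to 0.16 (range -1.45 to 0.16) and Psca to 0.59 (range -1.64 to 0.59). Every other log2 fold change of a tested member kept its sign under the alternatives run. No paired analysis was possible because the labels do not tell which samples share a mouse. Scaling by library totals moved the median of all genes to 0.03 in proximal and 0.07 in distal against primary libraries. Depth limits Msmb and Pbsn in the metastases, and Azgp1 in proximal libraries, where it had 4, 1 and 1 counts. It also limits Wfdc2, which had 5 counts in proximal 3 and 3 in distal 3.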
